A study of Populus yunnanensis and Populus davidiana with 24 samples.

Results

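The genes described here encode 4 enzymes that make the last monolignol precursors of lignin in poplar. They are CAld5H1 (Potri.005G117500.v3.1) and CAld5H2 (Potri.007G016400.v3.1), both coniferaldehyde 5-hydroxylases, COMT2 (Potri.012G006400.v3.1), a methyltransferase, and CAD1 (Potri.009G095800.v3.1), a cinnamyl alcohol dehydrogenase. They were picked by identifier, from a list that pairs these names with the identifiers and sets no condition on measured values, and they are 4 of 43836 identifiers in the expression table. The identifiers carry the chromosome numbers 5, 7, 12 and 9. Positions, exons and sequences were not used here, and no source used here gives the genome build.

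Lignin is the phenolic polymer that stiffens and waterproofs the walls of wood cells. In flowering trees it is built mainly of guaiacyl and syringyl units, which differ in the methoxyl groups on the ring. CAld5H, a cytochrome P450 enzyme also known as ferulate 5-hydroxylase, adds a hydroxyl group to coniferaldehyde and so opens the syringyl branch. CAD reduces the aldehydes of both branches to the alcohols that are polymerised in the wall. In poplar stems these enzymes are known mostly from developing xylem.

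Stems of cuttings were sampled from P. davidiana at 0, 48, 96 and 120 h and from P. yunnanensis at 0, 48, 96 and 120 h, with 3 libraries in each of the 8 groups and 24 in all. All cuttings came from annual branches in good growth condition whose buds and leaves had been taken off, and the series title is about differences in rooting between poplars. Cutting was the treatment of every group, the 0 h groups included. The labels give no genotype, clone or plant age, and do not say whether the 3 libraries of a group came from separate plants, so the p-values measure the spread among these libraries alone, and that spread may be technical.

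Expression was deposited as FPKM, fragments scaled to gene length and to the mapped fragments of the library, so levels can be set side by side between genes. The number of fragments is unknown. Relative depths, read from the steps of low values, were 0.620 to 0.835 in P. davidiana and 0.832 to 1.11 in P. yunnanensis, in units of P. yunnanensis 96 h replicate 1. The 0 h libraries of P. yunnanensis stood apart from one another, with a residual SD of 0.731 on the log2(FPKM + 1) scale over 24643 tested genes, against 0.410 to 0.552 in the other 7 groups. Depth runs with species, and fragments of one species may align less well to the reference than those of the other. Neither can be told apart from the species. In whole stems, fewer cells of a type and less RNA per cell cannot be told apart either. The identifiers are not paired with names, so tissue markers and other lignin genes were not analysed here.

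CAD1 separated the species most widely. It was lower in P. davidiana at every time. Over the 4 times its log2(FPKM + 1), P. davidiana minus P. yunnanensis, differed by -2.62, a fold of 0.163 on that scale. CAld5H1 was higher in P. davidiana over the 4 times, while CAld5H2 and COMT2 were lower. The CAld5H2 call ended with quantile normalization, and the COMT2 call without any 1 of 8 libraries. Of all tested genes, 41.4% to 46.9% were called between the species at single times and 70.0% over the 4 times. With time, CAD1 fell in P. davidiana at 48, 96 and 120 h against 0 h. At these times 3.93%, 14.9% and 19.8% of all tested genes were called there. Each of the CAD1 calls ended with the 6 compared libraries alone and without any 1 of 4 libraries. None of the 4 genes passed the test in P. yunnanensis at any time against 0 h. Of all tested genes, 15.6% passed there at 48 h, 27.4% at 96 h and 36.1% at 120 h.

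The genes also stood at very different levels. CAD1 ranked between percentiles 87.3 and 97.9 of all identifiers in the P. davidiana libraries and between percentiles 98.9 and 99.6 in the P. yunnanensis libraries. COMT2 had median levels of 16.2 FPKM in P. davidiana and 29.6 FPKM in P. yunnanensis over the 12 libraries of each species. CAld5H1 had medians of 15.6 and 10.6 FPKM in P. davidiana and P. yunnanensis. CAld5H2 was low in both species, with medians of 1.43 FPKM in P. davidiana and 2.34 FPKM in P. yunnanensis. All 4 genes passed the filter of 1 FPKM in at least 3 libraries. CAld5H1, COMT2 and CAD1 reached 1 FPKM in 24 of 24 libraries, and CAld5H2 in 22.

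**Figure D1:**
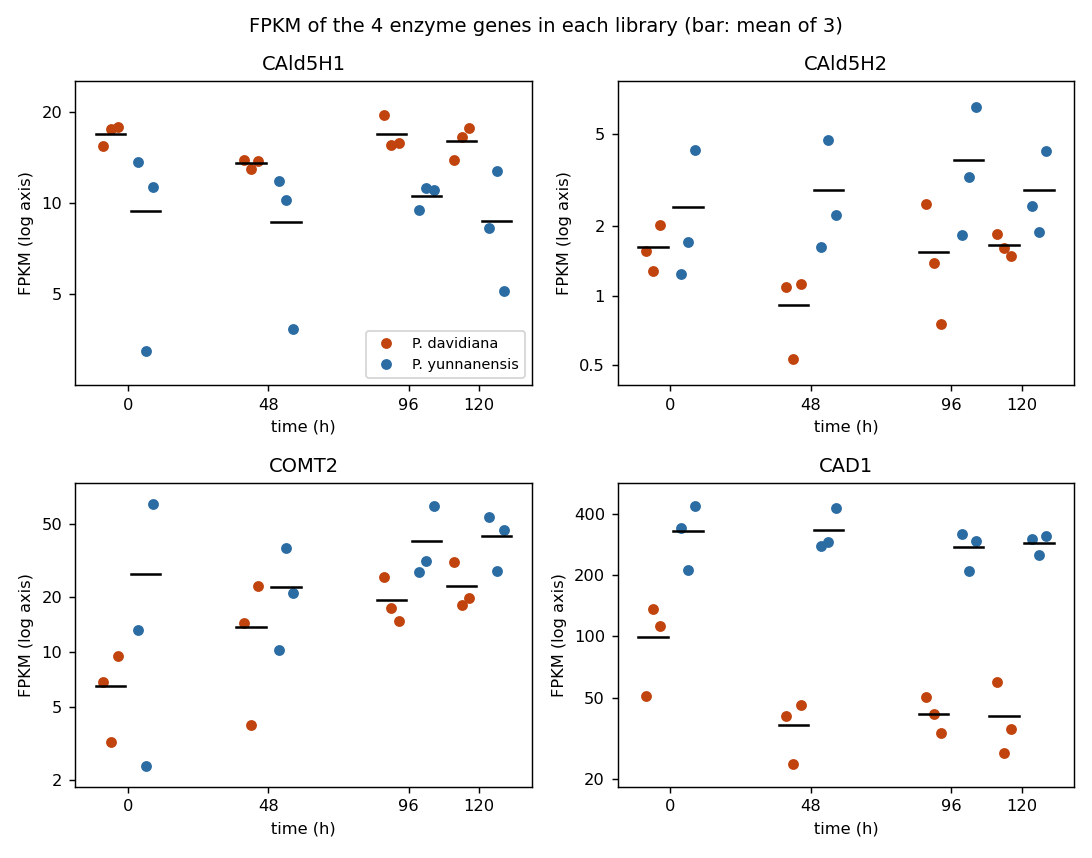
FPKM (log axis) of the 4 genes against time in h, with 1 point per library, P. davidiana in red to the left of P. yunnanensis in blue, and a bar at the mean of 3 libraries. CAD1 lies between 23.7 and 136 FPKM in P. davidiana and between 209.8 and 437 FPKM in P. yunnanensis, with no overlap (as in 14.4% of all tested genes), while COMT2 spreads from 2.40 to 64.5 FPKM in P. yunnanensis at 0 h alone.

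CAld5H1 encodes the entry enzyme of the syringyl branch and was the more abundant of the 2 hydroxylase genes. In P. davidiana it measured 15.4, 17.5 and 17.8 FPKM at 0 h, 13.8, 12.9 and 13.8 at 48 h, 19.4, 15.5 and 15.8 at 96 h, and 13.9, 16.5 and 17.7 at 120 h. In P. yunnanensis it measured 13.7, 3.24 and 11.3 FPKM at 0 h, 11.8, 10.2 and 3.81 at 48 h, 9.42, 11.2 and 11.0 at 96 h, and 8.27, 12.7 and 5.10 at 120 h. At each of the 4 times all P. davidiana libraries lay above all P. yunnanensis libraries of that time. The species also did not overlap in 44.3% of all tested genes at 0 h, 48.7% at 48 h, 58.9% at 96 h and 59.7% at 120 h. The lowest P. davidiana library, at 12.9 FPKM, still lay below the highest P. yunnanensis library, at 13.7 FPKM.

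Over the 4 times CAld5H1 averaged 15.8 ± 2.02 FPKM in P. davidiana and 9.31 ± 3.49 FPKM in P. yunnanensis (SD, n = 12 each). The difference on the log2 scale, P. davidiana minus P. yunnanensis with 1 added to each FPKM, was 0.80 (SE 0.19, 95% interval 0.40 to 1.20, limma adjusted p = 0.00101), against a median of -0.21 over all tested genes. At single times it was 0.97 at 0 h (adjusted p = 0.0496), 0.71 at 48 h (adjusted p = 0.144), 0.63 at 96 h (adjusted p = 0.19) and 0.88 at 120 h (adjusted p = 0.065). The 0 h call rested on P. yunnanensis 0 h replicate 2, at 3.24 FPKM, without which the difference was 0.41 (adjusted p = 0.344). It also ended without any 1 of the 3 P. davidiana 0 h libraries, and its adjusted p ranged from 0.0148 to 0.344 over its alternatives.

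No change of CAld5H1 with time passed the test. In P. davidiana its 48 h libraries all lay below the 0 h libraries, groups that did not overlap in 20.8% of all tested genes. The log2 change of -0.30 (95% interval -1.10 to 0.50) did not pass the test (adjusted p = 0.81). At 120 h against 0 h the log2 change was -0.076 in P. davidiana (95% interval -0.88 to 0.72) and 0.0060 in P. yunnanensis (95% interval -0.79 to 0.81). By mean level the groups ran from P. davidiana at 96, 0, 120 and 48 h down to P. yunnanensis at 96, 0, 120 and 48 h. Neighbours in that order overlapped except P. davidiana at 120 h and 48 h, and P. davidiana at 48 h and P. yunnanensis at 96 h.

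CAld5H2, the second hydroxylase gene, ran the other way between the species. In P. davidiana it measured 1.56, 1.28 and 2.02 FPKM at 0 h, 1.09, 0.534 and 1.12 at 48 h, 2.49, 1.38 and 0.756 at 96 h, and 1.85, 1.61 and 1.48 at 120 h. In P. yunnanensis it measured 1.24, 1.70 and 4.27 FPKM at 0 h, 1.62, 4.71 and 2.24 at 48 h, 1.82, 3.27 and 6.51 at 96 h, and 2.45, 1.89 and 4.23 at 120 h. The species did not overlap at 48 and 120 h and overlapped at 0 and 96 h. They did not overlap in 48.7% of all tested genes at 48 h and in 59.7% at 120 h. For CAld5H2 at 120 h, the highest P. davidiana library was at 1.85 FPKM and the lowest P. yunnanensis library at 1.89 FPKM. The 2 hydroxylase genes are close copies, and no source used here says how fragments that match both were counted, so their separate levels are uncertain.

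Over the 4 times CAld5H2 averaged 1.43 ± 0.540 FPKM in P. davidiana and 2.99 ± 1.61 FPKM in P. yunnanensis (SD, n = 12 each). On the log2 scale the difference was -0.65 (SE 0.19, 95% interval -1.05 to -0.25, limma adjusted p = 0.00529). Quantile normalization, which gives all libraries 1 distribution, brought this difference to -0.18 and ended the call (adjusted p = 0.28, with a range of 0.00189 to 0.28 over all alternatives). At 0 h and 120 h it also turned the sign, to 0.048 and 0.065. No single time passed the test, with adjusted p = 0.585 at 0 h, 0.0555 at 48 h, 0.0692 at 96 h and 0.302 at 120 h. Every change against 0 h lay between -0.46 and 0.50 on the log2 scale and none passed, the smallest adjusted p being 0.349 in P. yunnanensis at 96 h. By mean level all P. yunnanensis groups stood above all P. davidiana groups, and every pair of neighbours in the order overlapped.

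COMT2, which methylates the product of CAld5H, varied widely between libraries of 1 group. In P. davidiana it measured 6.91, 3.22 and 9.58 FPKM at 0 h, 14.3, 4.02 and 22.9 at 48 h, 25.7, 17.5 and 14.8 at 96 h, and 31.0, 18.03 and 19.8 at 120 h. All libraries at 96 h and all at 120 h lay above all at 0 h, and the 48 h libraries overlapped with those of 0 h. Between P. davidiana groups no overlap with 0 h was found in 20.8% of all tested genes at 48 h, 35.1% at 96 h and 40.5% at 120 h. In P. yunnanensis it measured 13.2, 2.40 and 64.5 FPKM at 0 h, 10.2, 37.2 and 21.0 at 48 h, 27.5, 31.4 and 62.2 at 96 h, and 54.7, 27.7 and 46.6 at 120 h. There the 0 h libraries alone spanned the whole range, so no later time was separate from 0 h, as 22.6% of all tested genes were at 48 h, 36.9% at 96 h and 40.0% at 120 h.

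In P. davidiana COMT2 averaged 6.57 ± 3.19 FPKM at 0 h, 13.8 ± 9.45 at 48 h, 19.4 ± 5.68 at 96 h, with 22.9 ± 7.002 at 120 h (SD, n = 3 each). The log2 change against 0 h was 1.49 at 96 h (SE 0.74, 95% interval -0.057 to 3.04, limma adjusted p = 0.2) and 1.72 at 120 h (SE 0.74, 95% interval 0.17 to 3.27, adjusted p = 0.112). Neither passed with the spread shared by all 24 libraries, to which the P. yunnanensis 0 h libraries contribute. With the 6 compared libraries alone both passed, at adjusted p = 0.0301 at 96 h (between 0.0301 and 0.465 over all alternatives) and 0.0129 at 120 h (between 0.0129 and 0.314). At 120 h the test was also passed with the spread weighted by group (adjusted p = 0.02) and with the P. yunnanensis 0 h libraries left out of the fit, a setting chosen after seeing the data (adjusted p = 0.0217).

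For P. yunnanensis the log2 change of COMT2 was 0.52 at 48 h, 1.404 at 96 h and 1.53 at 120 h against 0 h (SE 0.74 each), with adjusted p = 0.696, 0.163 and 0.113. At 48 h the mean FPKM ran the other way, at 22.8 ± 13.6 FPKM against 26.7 ± 33.2 at 0 h (SD, n = 3 each). Without 0 h replicate 3, the library at 64.5 FPKM, the change passed the test at 96 h (2.48, adjusted p = 0.00812, between 0.00812 and 0.752 over all alternatives) and at 120 h (2.61, adjusted p = 0.00461, between 0.00461 and 0.615). Without 0 h replicate 2, the library at 2.40 FPKM, the change was 0.35 at 96 h (adjusted p = 0.752) and 0.48 at 120 h (adjusted p = 0.615). The change from 0 to 120 h differed between P. davidiana and P. yunnanensis by 0.19 on the log2 scale, with a 95% interval from -1.997 to 2.38.

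Between the species COMT2 averaged 15.7 ± 8.63 FPKM in P. davidiana and 33.2 ± 20.4 FPKM in P. yunnanensis over the 4 times (SD, n = 12 each). The log2 difference was -0.92 (SE 0.37, 95% interval -1.69 to -0.14, limma adjusted p = 0.0334). This call ended, at adjusted p = 0.0529 to 0.0714, without any 1 of 8 libraries, which were P. davidiana 0 h, 48 h and 120 h replicate 2 and 96 h replicate 3, and P. yunnanensis 0 h and 96 h replicate 3, 48 h replicate 2 and 120 h replicate 1. No single time passed. The libraries of the species were separate at 96 h alone, a time at which 58.9% of all tested genes were separate. At 0 h, leaving out P. yunnanensis 0 h replicate 2, at 2.40 FPKM, moved the difference of -1.05 to -2.11 and past the test (adjusted p = 0.0145, between 0.0145 and 0.986 over all alternatives). Leaving out P. yunnanensis 0 h replicate 3, at 64.5 FPKM, turned its sign, to 0.025 (adjusted p = 0.986). By mean level P. yunnanensis at 120, 96 and 0 h stood highest and P. davidiana at 0 h lowest, and every pair of neighbours overlapped.

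CAD1, whose enzyme makes the monolignol alcohols, was the most abundant of the 4 genes in every library. In P. davidiana it measured 51.0, 136 and 112 FPKM at 0 h, 40.8, 23.7 and 45.8 at 48 h, 50.2, 41.4 and 33.5 at 96 h, and 59.8, 26.9 and 35.0 at 120 h. In P. yunnanensis it measured 341, 212 and 437 FPKM at 0 h, 278, 289.8 and 426 at 48 h, 317, 209.8 and 294 at 96 h, and 301, 251 and 310.4 at 120 h. The highest of the 12 P. davidiana libraries lay below the lowest of the 12 P. yunnanensis libraries. The 12 libraries of each species were likewise separate, in either direction, in 14.4% of all tested genes.

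Over the 4 times CAD1 averaged 54.7 ± 34.3 FPKM in P. davidiana and 306 ± 70.9 FPKM in P. yunnanensis (SD, n = 12 each). On the log2 scale that made a difference of -2.62 (SE 0.18, 95% interval -2.99 to -2.25, limma adjusted p = 6.35e-11). The difference was -1.77 at 0 h (adjusted p = 0.000481), -3.16 at 48 h (adjusted p = 6.02e-07), -2.68 at 96 h (adjusted p = 4.79e-06) and -2.87 at 120 h (adjusted p = 2.11e-06). Under every alternative run the CAD1 difference kept its sign and stayed past the test, at each time and over the 4 times. By mean level the 4 P. yunnanensis groups came first, and neighbours in the order overlapped except P. yunnanensis at 96 h and P. davidiana at 0 h, and P. davidiana at 0 h and 96 h.

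In P. davidiana CAD1 fell to 36.8 ± 11.6 FPKM at 48 h, 41.7 ± 8.36 at 96 h, and 40.5 ± 17.1 at 120 h, against 99.6 ± 43.7 at 0 h (SD, n = 3 each). On the log2 scale CAD1 fell by 1.35 at 48 h (SE 0.35, limma adjusted p = 0.0362), by 1.14 at 96 h (SE 0.35, adjusted p = 0.0346) and by 1.24 at 120 h (SE 0.35, adjusted p = 0.0177). The 3 comparisons share their 0 h libraries. All libraries at 48 h and at 96 h lay below all at 0 h, groups that did not overlap in 20.8% and 35.1% of all tested genes. The 120 h replicate 1 library, at 59.8 FPKM, lay above the 0 h replicate 1 library, at 51.0 FPKM. At 120 h against 48 h no change passed the test (log2 change 0.11, 95% interval -0.63 to 0.85).

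These falls were close to the threshold. With the 6 compared libraries alone they did not pass, at adjusted p = 0.107 at 48 h, 0.0602 at 96 h and 0.0545 at 120 h, and the ranges over all alternatives were 0.00682 to 0.172, 0.00741 to 0.167 and 0.00357 to 0.0993. Leaving out P. davidiana 0 h replicate 2 or replicate 3 ended the call at each of the 3 times, as did leaving out replicate 2 or replicate 3 of the later group.

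In P. yunnanensis the CAD1 level at 48, 96 and 120 h overlapped with that at 0 h, with log2 changes of 0.041 (95% interval -0.70 to 0.78), -0.23 (-0.97 to 0.51) and -0.14 (-0.88 to 0.60). The change from 0 to 120 h differed between P. davidiana and P. yunnanensis by -1.10 on the log2 scale (SE 0.50, 95% interval -2.14 to -0.051). That difference had an unadjusted p of 0.0408 and did not pass over all genes (limma adjusted p = 0.14). It passed without P. davidiana 0 h replicate 1 alone (-1.52, adjusted p = 0.0426, between 0.0426 and 0.3 over all alternatives). So CAD1 is not shown to respond differently in the species by 120 h.

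**Figure D2:**
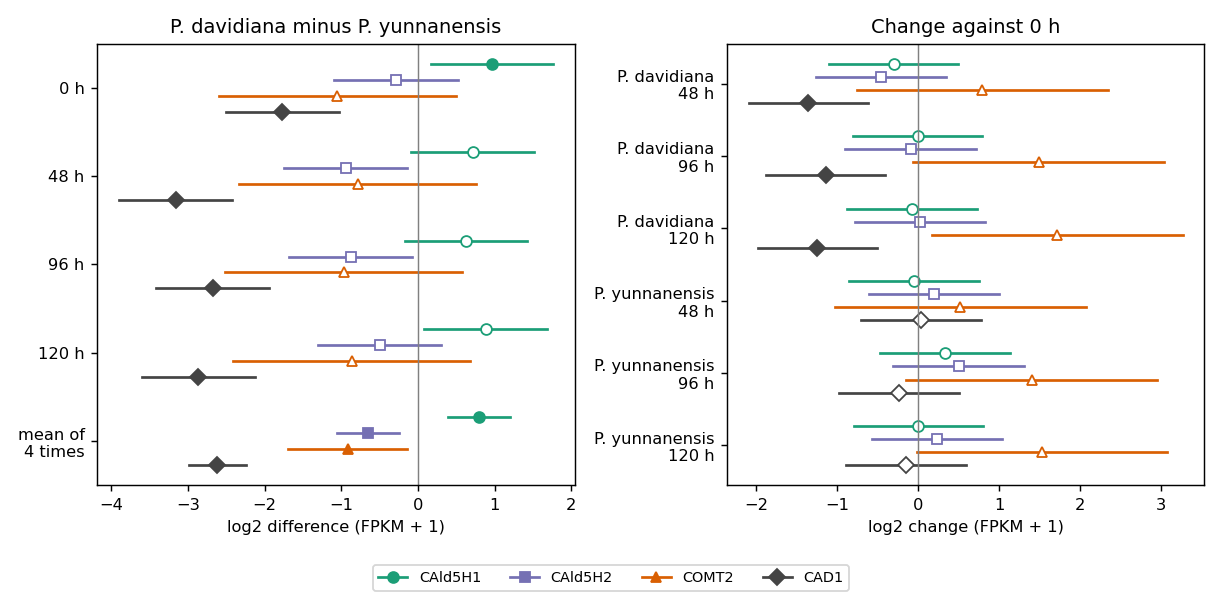
Log2 differences between the species (left, P. davidiana minus P. yunnanensis at each time and over the 4 times) and log2 changes against 0 h (right, by species and time), both on the log2(FPKM + 1) scale, with 95% intervals and filled markers where the limma adjusted p is under 0.05. CAD1 lies between -3.16 and -1.77 at all 4 times on the left, and on the right only CAD1 in P. davidiana is filled.

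Read against all 24643 tested genes, the counts were as follows. In P. davidiana 1 of 4 members was called at 48 h, where 3.93% of all genes were called, 1 of 4 at 96 h (14.9% of all genes) and 1 of 4 at 120 h (19.8% of all genes), each time CAD1. For P. yunnanensis limma called 0 of 4 at 48 h (15.6% of all genes), 0 of 4 at 96 h (27.4%) and 0 of 4 at 120 h (36.1%), and 0 of 4 had an unadjusted p under 0.05 at any of these times. Between 48 and 120 h limma called 0 of 4 in P. davidiana (6.0% of all genes) and 0 of 4 in P. yunnanensis (1.87%), again with 0 at an unadjusted p under 0.05. The interaction at 120 h gave 0 of 4 (14.9% of all genes), with 1, CAD1, at an unadjusted p under 0.05.

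Calls between the species were common throughout the table. At 0 h 2 of 4 members differed, where 41.4% of all genes did, and 1 of 4 differed at 48 h (41.9% of all genes), 96 h (45.8%) and 120 h (46.9%). Over the 4 times 4 of 4 differed, 1 higher and 3 lower in P. davidiana, where 70.0% of all genes differed, 26.6% higher and 43.3% lower, so that count is near the background. The median log2 difference was -0.78 for the members and -0.21 for all tested genes. The median change of all tested genes at 120 h against 0 h was 0.083 in P. davidiana and 0.34 in P. yunnanensis as deposited. After median ratio scaling it was 0 and -0.017, and in P. yunnanensis the changes of CAld5H1 and CAld5H2 at 120 h then turned to -0.40 and -0.092.

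Ratios between members within a library do not depend on scaling by 1 factor per library. Quantile normalization is not such a scaling, and the ratios were not run under it. The ratio of CAld5H1 to CAld5H2 ranged from 7.47 to 24.2 in the P. davidiana libraries, with a median of 11.6. It ranged from 1.21 to 11.0 in the P. yunnanensis libraries, with a median of 3.01. The log2 ratio was 1.88 higher in P. davidiana (exact permutation test of species within times, two-sided, p = 6.25e-05, 0.000375 after adjustment over 6 ratio tests). With 1 added to each FPKM that difference was 1.45. It restates the opposite species differences of the 2 genes given above. No share over other pairs of genes was computed, and 70.0% of single tested genes were called between the species over the 4 times. CAld5H2 was low, at 0.534 to 2.49 FPKM in the P. davidiana libraries, and the ratio of 24.2 came from the library at 0.534 FPKM. How fragments that match both hydroxylase genes were counted is unknown, which bears on this ratio. The ratio at 120 h against 0 h differed by -0.12 on the log2 scale in P. davidiana and by -0.34 in P. yunnanensis (exact permutation p = 0.8 each, where 3 against 3 libraries cannot go below 0.1).

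In P. davidiana the COMT2 level stood nearer to the CAD1 level at the later times. The ratio of COMT2 to CAD1 there was 0.135, 0.0237 and 0.0856 at 0 h, 0.351, 0.17 and 0.4996 at 48 h, 0.512, 0.422 and 0.443 at 96 h, and 0.518, 0.671 and 0.566 at 120 h. Every library at 48, 96 and 120 h lay above every library at 0 h. Single tested genes did not overlap with 0 h there in 20.8% at 48 h, 35.1% at 96 h and 40.5% at 120 h, and pairs of genes were not counted. At 120 h against 0 h the log2 ratio was 3.16 higher, with the smallest p that 3 against 3 libraries allow (exact permutation p = 0.1, 0.2 after adjustment).

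In P. yunnanensis the COMT2 to CAD1 ratio was 0.0387, 0.0113 and 0.147 at 0 h, 0.0367, 0.128 and 0.0492 at 48 h, 0.0869, 0.15 and 0.212 at 96 h, and 0.182, 0.11 and 0.15 at 120 h. The 120 h libraries overlapped with those of 0 h, and the log2 difference of 1.85 had an exact permutation p of 0.2 (0.3 after adjustment). Over the 4 times the log2 ratio was 1.69 higher in P. davidiana than in P. yunnanensis (exact permutation test within times, p = 0.000738, 0.00221 after adjustment). This difference restates those of COMT2 and CAD1 given above. At 48, 96 and 120 h every P. davidiana library lay above every P. yunnanensis library of the same time, and at 0 h they overlapped. Among single tested genes the species did not overlap in 48.7% at 48 h, 58.9% at 96 h and 59.7% at 120 h. The share over pairs of genes was not computed.

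**Figure D3:**
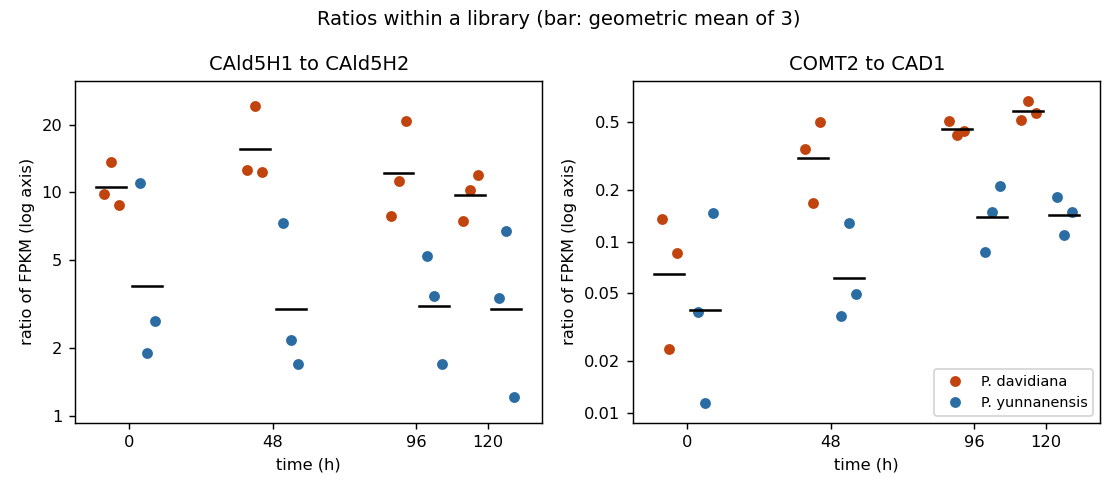
Ratios of FPKM within a library (log axis) against time in h, CAld5H1 to CAld5H2 on the left and COMT2 to CAD1 on the right, with 1 point per library, P. davidiana in red to the left of P. yunnanensis in blue, and a bar at the geometric mean of 3 libraries. The COMT2 to CAD1 ratio in P. davidiana lies between 0.518 and 0.671 at 120 h, against 0.0237 to 0.135 at 0 h.

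Likeness of pattern was measured as the root mean square difference of log2(FPKM + 1), each gene centred on its mean over the 24 libraries, a measure that is small for any pair of genes that vary little. Among the 14970 genes that averaged 5 FPKM or more, Potri.008G120900.v3.1 was nearest to CAld5H1 at 0.27, where the median gene stood at 0.85. Nearest to CAld5H2 was Potri.006G201200.v3.1 at 0.31 (median gene 0.76), and nearest to COMT2 was Potri.002G190500.v3.1 at 0.51 (median gene 1.18). CAD1 was nearest to Potri.008G133400.v3.1 at 0.43 (median gene 1.48). That gene averaged 81.9 FPKM at 0 h, 38.3 at 48 h, 47.6 at 96 h and 52.2 at 120 h in P. davidiana, and 510.1, 363, 245 and 337 FPKM at these times in P. yunnanensis.

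The members were not close to one another by this measure. The closest ranking was that of CAld5H2 seen from COMT2, at 0.86, which placed it at 1923 of 24642 other tested genes. At that same distance COMT2 ranked 15756 seen from CAld5H2. Seen from CAD1, CAld5H2 ranked 5533 and COMT2 13205. The 2 hydroxylase genes were 0.92 apart, and CAld5H2 ranked 13157 seen from CAld5H1.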

How the data were processed

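RNA sequencing libraries of poplar cutting stems were deposited as 1 table of FPKM values, a unit that the authors' column names give, per the file headers. No source used here names the aligner, the counter or the genome build. Each library was grouped by its title, which gives species, time and replicate number. All columns were assigned to a library, and no 2 libraries held identical values.

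A filter of 1 FPKM in 3 or more libraries left 24643 genes, which limma 3.58.1 (R 4.3.3) tested as log2(FPKM + 1). The fit had 1 mean per species and time, 16 residual degrees of freedom, a variance trend and no block. Benjamini-Hochberg adjustment ran over all tested genes within each of 14 comparisons, with 0.05 as the threshold. The log2(FPKM + 1) scale understates changes of low genes. Ratios, ranks and relative depths were computed with numpy 2.4.6 and pandas 2.3.3 under Python 3.11.15, and figures drawn with matplotlib 3.10.9.

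The rule that picks the members uses identifiers only, but the set of genes, the lists and the tests were chosen with earlier results of these data known. Named genes were all 4 members and, for likeness, the nearest other gene of each. The lists of other lignin genes and of tissue markers could not be matched to names and were not analysed here. Same-numbered libraries were checked for pairing by correlating their deviations from the group means. All 3 correlations exceeded 0.1 for 48 h against 0 h in P. davidiana (0.297, 0.287 and 0.256), which comes from the data and not from the labels, and in the other 11 comparisons not all did. The alternatives were other pseudocounts, filters, scalings and spreads, a replicate block and leaving out libraries.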

Additional observations from a re-analysis of the deposited data

How the results depend on the processing

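Over 62 results and their alternatives, 954 values kept their direction and their side of the threshold, 71 reversed, 35 lost the call and 26 gained it; the cause was not tested. Values are log2 changes. From the 6 compared libraries alone, calls of CAD1 in P. davidiana ended at 48 h (-1.35), 96 h (-1.14) and 120 h (-1.24) against 0 h, as did that of CAld5H1 between the species at 0 h (0.97). COMT2 gained calls there in P. davidiana at 96 h (1.49) and 120 h (1.72) against 0 h, and between the species at 96 h (-0.97) and 120 h (-0.86), and CAld5H1 at 96 h (0.63) and 120 h (0.88). The species call of CAld5H1 at 0 h also ended with a pseudocount of 0.1 (1.07), with median ratio scaling (0.91), and at 0.97 with no filter, no variance trend, the spread weighted by group or the replicate block. Weighting by group called COMT2 in P. davidiana at 120 h against 0 h (1.72), and between the species CAld5H2 at 96 h (-0.88) and CAld5H1 at 120 h (0.88). Leaving the P. yunnanensis 0 h libraries out of the fit, chosen after seeing the data, called COMT2 in P. davidiana at 120 h against 0 h (1.72), and between the species CAld5H2 at 48 h (-0.94) and CAld5H1 at 120 h (0.88). CAld5H2 between the species at 48 h was also called with a pseudocount of 0.1 (-1.46), median ratio scaling (-0.91) and no variance trend (-0.94).

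Median ratio scaling reversed CAld5H2 (-0.074) in P. davidiana at 120 h against 0 h, and in P. yunnanensis against 0 h CAD1 at 48 h (-0.13), CAld5H1 at 96 h (-0.035) and 120 h (-0.40) and CAld5H2 at 120 h (-0.092). At 120 h against 48 h it reversed CAD1 in P. davidiana (-0.035), and CAld5H1 (-0.21) and CAld5H2 (-0.18) in P. yunnanensis. It reversed the interactions of CAld5H1 (0.17) and CAld5H2 (0.017) and called CAld5H1 between the species at 120 h (1.08). Quantile normalization reversed the same results, at -0.13, -0.0068, -0.071, -0.48, -0.15, -0.0057, -0.32, -0.35, 0.25 and 0.017 in that order. It also reversed CAD1 in P. yunnanensis at 120 h against 48 h (0.0056) and CAld5H2 between the species at 0 h (0.048) and 120 h (0.065), called CAld5H1 at 96 h (1.03) and 120 h (1.27), and ended the call of CAld5H2 over the 4 times (-0.18).

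Leaving out 1 library at a time changed a direction or a call in the following ranges. In P. davidiana against 0 h these were -1.77 to -1.07, -1.56 to -0.86 and -1.66 to -0.96 for CAD1 at 48, 96 and 120 h, -0.10 to 0.052 and -0.15 to 0.019 for CAld5H1 at 96 and 120 h, and -0.35 to 0.15 and -0.074 to 0.13 for CAld5H2 at 96 and 120 h. In P. yunnanensis at 48, 96 and 120 h against 0 h they were -0.60 to 0.39, -0.22 to 0.67 and -0.55 to 0.35 for CAld5H1, -0.53 to 1.60, 0.35 to 2.48 and 0.48 to 2.61 for COMT2, and -0.25 to 0.27, -0.52 to 0.0041 and -0.43 to 0.091 for CAD1, with -0.12 to 0.57 at 48 h and -0.016 to 0.60 at 120 h for CAld5H2. At 120 h against 48 h they were -0.20 to 0.36 for CAD1 in P. davidiana, and -0.38 to 0.35 for CAld5H1, -0.21 to 0.36 for CAld5H2 and -0.30 to 0.011 for CAD1 in P. yunnanensis. Between the species they were 0.41 to 1.31 at 0 h and 0.59 to 1.17 at 120 h for CAld5H1, -0.54 to 0.081, -1.18 to -0.62 and -1.21 to -0.51 for CAld5H2 at 0, 48 and 96 h, and -2.11 to 0.025 at 0 h and -1.18 to -0.65 over the 4 times for COMT2. For the interaction they were -0.42 to 0.47 for CAld5H1, -0.58 to 0.038 for CAld5H2, -0.89 to 1.25 for COMT2 and -1.52 to -0.81 for CAD1. The log2 ratio of CAld5H1 to CAld5H2 at 120 h against 0 h had a range of -0.27 to 0.066 for P. davidiana and -0.92 to 0.43 for P. yunnanensis.

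With the replicate number as a block, 11 of the 12 member calls of the fit without it were made, and the lost one was CAld5H1 between the species at 0 h. In 1 of 12 comparisons, P. davidiana at 48 h against 0 h, every library correlated best with its own number. A paired test of the ratios at 120 h against 0 h was not run. A filter of 5 FPKM left CAld5H2 untested in every comparison, since only P. yunnanensis 96 h replicate 3, at 6.51 FPKM, reached it. The number of fragments is unknown, so the counting error of CAld5H2, at 0.534 to 6.51 FPKM, cannot be given.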

Other observations

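Within groups, CAld5H2 and COMT2 stood highest in the same library in 7 of 8 groups and lowest in the same library in 6 of 8, a pattern noticed in the values and then counted. The shared highest libraries were P. davidiana 0 h and 48 h replicate 3, 96 h and 120 h replicate 1, and P. yunnanensis 0 h and 96 h replicate 3 and 48 h replicate 2. No other pair of members shared its highest library in as many groups. Of the other tested genes, 5.14% shared the highest library with COMT2 in at least 7 groups, a share that does not allow for the picking of this pair. After median ratio scaling the pair shared it in 6 of 8 groups, as did 7.05% of genes. The libraries where COMT2 was highest were in 7 of 8 groups also those with the highest median ratio scaling factor, which 3.93% of tested genes matched as often. For CAld5H2 this held in 6 of 8 groups, which 12.6% of tested genes matched as often. The part of the library scaling in this pattern was not tested. CAD1 shared its highest library with CAld5H2 in 5 of 8 groups, as often as 12.9% of other genes did, and with COMT2 in 4 (33.1%). CAld5H1, by contrast, shared its highest library with CAld5H2 in 2 of 8 groups, with COMT2 in 2 and with CAD1 in 1.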
